A study of Caenorhabditis elegans with 12 samples.

Results

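The comparison of rotenone with its solvent in day 15 worms rested on 6 of the 12 libraries of the study: 3 labelled day 15 after rotenone and 3 labelled day 15 with DMSO. All were whole hermaphrodites of N2, the wild-type laboratory strain of the nematode Caenorhabditis elegans. The rotenone worms had received 100 nM of this inhibitor of mitochondrial complex I for 24 hours from the L4 stage, the last larval stage, and the solvent worms 0.1% DMSO, for which the labels give no duration; they do not say whether the rotenone worms received DMSO as well. The other 6 libraries are of day 5 worms under the same pair of treatments. Libraries were put in these groups by their labels alone. The labels do not say from which event the days were counted, so the interval between the exposure and the sampling is not known. They also do not say whether the 3 libraries of a group came from separate cultures, so the errors given here measure the spread between these libraries, which may be technical.

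MicroRNAs are short RNAs that are cut from a hairpin precursor and guide Argonaute proteins to messenger RNAs, whose translation and stability they lower. In the worm some time the larval stages, some are needed in the embryo, and several change the length of adult life or the tolerance of stress. The counts are reads per hairpin, with no separate value for its arms. In RNA of whole worms, fewer cells of a type and less RNA per cell cannot be told apart. Every value is relative to the other hairpins of its library, and a shift of all hairpins together would not be seen.

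Day 15 libraries held 5856949, 4457939 and 4215830 hairpin reads after rotenone and 5989717, 5729530 and 4727531 with DMSO. Of 250 hairpins 181 had enough reads to be tested, and the other 69 held 0.00162% of the day 15 reads. The filter used all 12 libraries, so that reads at day 5 could also let a hairpin pass. With the 6 day 15 libraries alone 169 were tested. Levels are given as CPM, reads scaled to a fixed library total of 1000000, after scaling by the trimmed mean of M-values (TMM). The 6 libraries did not group by treatment. Over the 92 hairpins of at least 100 CPM, the log2 levels of 2 libraries differed with an SD of 0.152 to 0.185 among the 3 pairs of rotenone libraries, 0.112 to 0.135 among the 3 pairs of DMSO libraries and 0.0813 to 0.164 among the 9 pairs across treatments. The closest pair was the rotenone and the DMSO library of sequencing lane L006 (0.0813), and the farthest was the pair of rotenone libraries of lane L007 (0.185). The median coefficient of variation between libraries was larger after rotenone than with DMSO in 4 of the 6 classes of abundance described below, at 7.77% and 4.20% for hairpins of 10000 CPM and over, 5.66% and 3.44% at 1000 to 10000 CPM, 7.50% and 5.17% at 100 to 1000 CPM and 26.3% and 19.2% at 1 to 10 CPM. It was smaller after rotenone at 10 to 100 CPM (9.80% and 10.5%) and among the 4 tested hairpins under 1 CPM (56.8% and 87.9%). The difference in spread was not tested.

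The question of the comparison was whether a rotenone exposure at the L4 stage was still visible in the microRNAs of day 15 worms. No hairpin was called, at an adjusted p under 0.05 over 181 hairpins (edgeR quasi-likelihood test), which is 0% of those tested. The counts at an unadjusted p under 0.05 were 3 hairpins (1.66%) by edgeR, 3 by DESeq2 and 3 by limma-voom, with 0 calls by each tool. The size of change that the data leave room for depended on the abundance of the hairpin. A change of a given size was counted as excluded when both a rise and a fall of that size lay outside the hairpin's 95% interval, the fall being the inverse of the rise. A 25% change below means a rise of 25% or a fall of 20%.

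The 5 most abundant hairpins at day 15 were mir-82, mir-58a and mir-80 of the bantam-related miR-58 family, mir-72, and mir-39 of the embryonic miR-35 family. For mir-82 the levels were 158249, 158435 and 189368 CPM after rotenone, against 148292, 169829 and 172535 CPM with DMSO. Both groups covered much the same range, and the highest value was that of rotenone replicate 3. The log2 change of mir-82 was 0.04 ± 0.09 (SE; 95% interval -0.14 to 0.23), which excluded a rise of more than 1.17-fold and a fall of more than 1.10-fold. For mir-39 the levels were 58615, 54175 and 66831 CPM after rotenone, against 59014, 59965 and 56557 CPM with DMSO. The rotenone libraries lay on both sides of the DMSO libraries, and the interval of the log2 change was -0.12 to 0.19. For mir-72, at 103017 ± 6103 CPM after rotenone and 106028 ± 804 CPM with DMSO (SD, n = 3 each), the log2 interval was -0.19 to 0.11. For mir-58a and mir-80 it was -0.16 to 0.22 and -0.14 to 0.20.

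**Figure D1:**
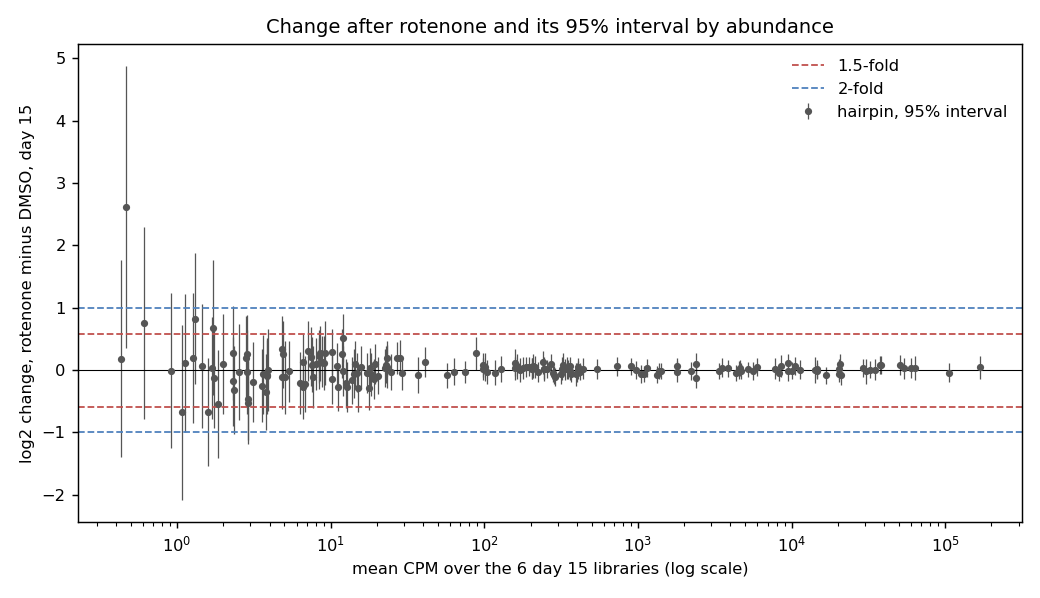
Log2 change (rotenone minus DMSO, day 15) of each of the 181 hairpins tested, with its 95% interval, against the mean CPM of the 6 day 15 libraries on a log axis. Dashed lines mark changes of 1.5-fold and 2-fold. From 100 CPM upward every interval lies between the 1.5-fold lines, and the intervals widen to the left of it.

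Over all abundances the intervals of 129 of 181 hairpins (71.3%) excluded a 1.5-fold change, those of 97 (53.6%) a 25% change, those of 165 (91.2%) a 2-fold change and those of 175 (96.7%) a 3-fold change. The 92 hairpins that averaged 100 CPM or more held 99.9% of the day 15 reads. All 92 of their intervals excluded a 1.5-fold change, and 91 excluded a 25% change. The exception was mir-76, with 151, 204 and 134 CPM after rotenone and 151, 158 and 142 CPM with DMSO, whose interval reached a rise of 1.26-fold. The high value of mir-76 was that of rotenone replicate 2, while the other rotenone libraries lay within or below the range of DMSO. Of the 92 measured changes 86 were smaller than 0.1 on the log2 scale, and the largest was that of mir-83, a relative of miR-29, at 0.13 ± 0.09. When the intervals were widened so that all 181 hold together, each of the 92 still excluded a 1.5-fold change and the largest change left in was 1.48-fold. The 25% bound did not hold up as well. Of all 181 hairpins, 98 then excluded a 1.5-fold change and only 23, all of at least 100 CPM, a 25% change.

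The classes of abundance differed as follows. Among the 23 hairpins of 10000 CPM and over, the median interval was ± 0.15 on the log2 scale, and the smallest change excluded in both directions was 1.10-fold for mir-240 and at most 1.20-fold for any of them. The widest interval of that class was that of mir-235, a relative of miR-92, at -0.21 to 0.21. Its levels were 15667, 12390 and 14388 CPM after rotenone, against 15094, 12640 and 14684 CPM with DMSO, so that replicate 2 was the low library of both groups. Among the 26 hairpins of 1000 to 10000 CPM the median interval was ± 0.14, and the tightest bound of all was that of mir-34, which is known for roles under stress. It stood at 5203, 5067 and 5362 CPM after rotenone, against 5127, 5325 and 5074 CPM with DMSO. All 6 libraries of mir-34 lay within the same narrow range, and its interval of -0.11 to 0.13 excluded any rise or fall of 1.10-fold or more. The widest interval of that class belonged to mir-73, at -0.12 to 0.24, where rotenone replicate 3 had 10112 CPM and the other 5 libraries 7441 to 8571 CPM.

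Among the 43 hairpins of 100 to 1000 CPM the median interval was ± 0.17, and the smallest change excluded in both directions had a median of 1.15-fold. In this class mir-47 had the narrowest interval (-0.08 to 0.19) and mir-359 the widest (-0.17 to 0.27). The bounds loosened below 100 CPM. Of the 38 hairpins of 10 to 100 CPM, all 38 excluded a 2-fold change, 30 a 1.5-fold change and 6 a 25% change, with a median interval of ± 0.32. The narrowest there was that of mir-4813, which the annotation places over an exon of idhg-1 on its strand, at -0.21 to 0.14, and the widest that of mir-2208b, at -0.41 to 0.39. Of the 47 hairpins of 1 to 10 CPM, 35 excluded a 2-fold change, 7 a 1.5-fold change and 0 a 25% change, with a median interval of ± 0.61. Leaving out rotenone replicate 2 left 0 of these 47 excluding 1.5-fold, leaving out DMSO replicate 2 left 1, and leaving out replicate 1 of either group left 3.

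The narrowest and the widest interval of the 1 to 10 CPM class were those of mir-1817 and mir-8196b. For mir-1817 there were 55, 38 and 33 reads after rotenone and 43, 48 and 42 with DMSO, and the log2 interval was -0.30 to 0.52. For mir-8196b there were 9, 0 and 3 reads after rotenone and 2, 9 and 11 with DMSO, and neither a fall of 4.26-fold nor a rise of 1.66-fold was excluded. Its log2 change was 2.27 within lane L006 and -2.40 within lane L007, so its few reads also scattered between libraries. Below 1 CPM, 4 hairpins were tested, at a median of 2.83 reads per library, and 0 of them excluded a 2-fold change. None of these 4 was tested with the 6 day 15 libraries alone. The narrowest of these intervals, that of mir-360, ran from -1.26 to 1.24. A further 69 hairpins were not tested, of which mir-4810b had the most day 15 reads (24 after rotenone and 18 with DMSO). They held 242 reads after rotenone and 259 with DMSO over 3 libraries each, 19 of them had 0 reads in all 6 libraries, and a count of 0 allows up to 0.206 CPM over the pooled rotenone libraries and 0.182 CPM over the pooled DMSO libraries. These limits cover counting error only.

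**Figure D2:**
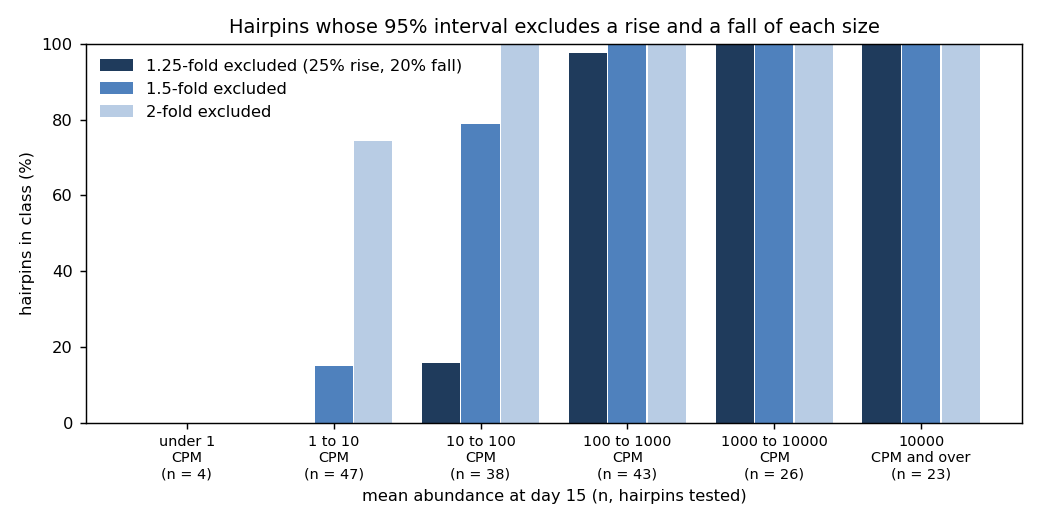
Share of the hairpins tested in each class of mean day 15 abundance whose 95% interval excludes a change of 25% (a fall of 20%), 1.5-fold or 2-fold in both directions (bars, percent; n under each class). The share for 1.5-fold is 14.9% at 1 to 10 CPM, 78.9% at 10 to 100 CPM and 100% in each class above.

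The source of the error changed with abundance. Counting alone gave a median of 81.1% of the variance of the change at 1 to 10 CPM and 56.4% at 10 to 100 CPM. It gave 15.9% at 100 to 1000 CPM, 1.58% at 1000 to 10000 CPM and 0.190% at 10000 CPM and over. The standard error therefore stopped falling with abundance: its median was 0.08 at 100 to 1000 CPM, 0.07 at 1000 to 10000 CPM and 0.08 at 10000 CPM and over. Above about 100 CPM the bounds were set mostly by the spread between libraries and little by the number of reads.

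**Figure D3:**
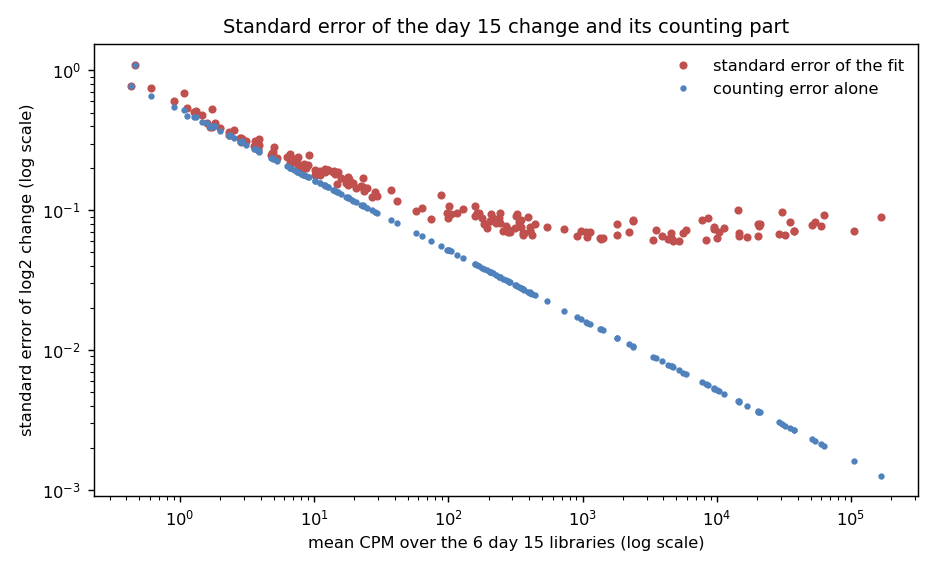
Standard error of the day 15 log2 change of each tested hairpin (red) and the part that counting error alone gives (blue), against mean CPM, both axes on log scales. The 2 series run close at the low end and part gradually as abundance rises. From about 100 CPM the red points level off near 0.07 while the blue ones go on falling.

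The 5 hairpins with the lowest p were all under 100 CPM, and none passed the correction. The highest in rank was mir-4806, which lies within an intron of ras-1 on its strand (WBcel235, chromosome II, 12346299 to 12346381, minus strand). It had 5, 6 and 1 reads after rotenone, against 1, 1 and 0 reads with DMSO. All 3 rotenone libraries lay above the DMSO libraries after scaling, but the lowest of them held a single read, as did 2 of the DMSO libraries. The ratio of the pooled reads, scaled by library size, was 6.79, and counting error alone gave it an exact 95% interval of 1.51 to 62.5. Its adjusted p was 0.882 in the edgeR quasi-likelihood test. With the 6 day 15 libraries alone mir-4806 was not tested.

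For mir-234 (chromosome II, 14466263 to 14466358, minus strand, outside protein-coding genes) the levels were 11.8, 14.5 and 16.3 CPM after rotenone, against 10.3, 8.88 and 10.1 CPM with DMSO. The groups did not overlap. The log2 change of 0.52 ± 0.19 had an interval of 0.13 to 0.90, and neither a rise of 1.10-fold nor one of 1.87-fold lay outside it (adjusted p = 0.918, edgeR quasi-likelihood test). The value was 0.32 within lane L006 and 0.68 within lane L007, and 0.42 to 0.68 with any 1 of the 12 libraries left out.

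For mir-49, the other relative of miR-29 (chromosome X, 9989282 to 9989378, plus strand, outside protein-coding genes), the levels were 96.9, 110.2 and 77.1 CPM after rotenone, against 74.7, 84.6 and 77.9 CPM with DMSO. Rotenone replicate 3 lay within the DMSO range and the other rotenone libraries above it. The log2 change was 0.27 ± 0.13 with an interval of 0.00 to 0.53 (adjusted p = 0.968, edgeR quasi-likelihood test). The next in rank were mir-5593-2, with 9, 6 and 3 reads after rotenone and 12, 13 and 8 with DMSO, and mir-5594, within an intron of K12D12.4, with 70, 50 and 43 reads after rotenone and 52, 50 and 49 with DMSO. After scaling, the groups of both hairpins did not overlap, mir-5593-2 being lower and mir-5594 higher after rotenone, and both intervals included 0 (-1.55 to 0.19 and -0.07 to 0.66).

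Groups that did not overlap were few. In 7 hairpins (3.87%) all 3 rotenone libraries lay above the DMSO libraries and in 4 (2.21%) below, together 11 of 181 (6.08%). Besides mir-4806, mir-234 and mir-5594, the higher ones were mir-231, mir-251, mir-784 and mir-4807, and besides mir-5593-2 the lower ones were mir-65, mir-358 and mir-4809. Of these names mir-251, mir-784, mir-4807, mir-358 and mir-4809 were picked out after their values were seen. Only mir-231 and mir-65 of the 11 exceeded 100 CPM. For mir-65 the levels were 16191, 16275 and 16110 CPM after rotenone, against 17707, 16977 and 16792 CPM with DMSO. The rotenone libraries lay close together below the DMSO libraries, yet the change was -0.08 ± 0.06, a fall of more than 1.16-fold being excluded.

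**Figure D4:**
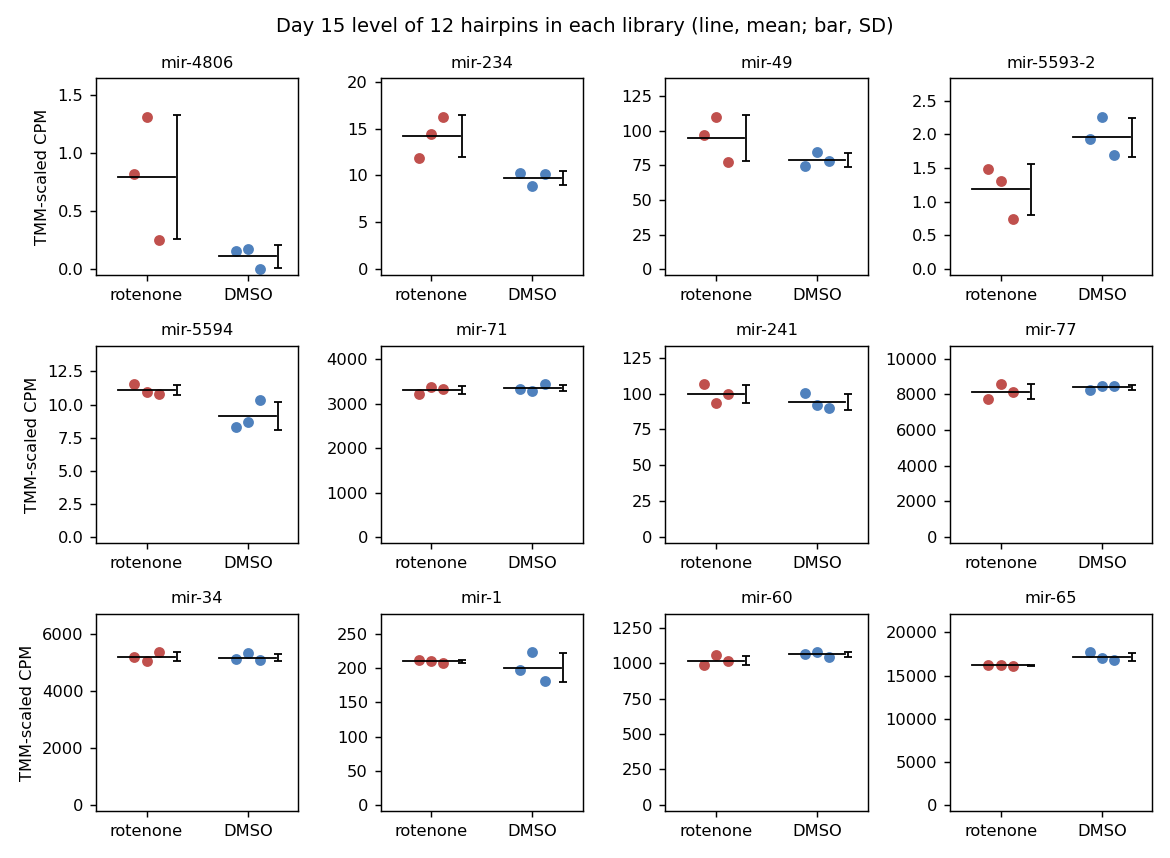
TMM-scaled CPM of 12 hairpins in the 3 rotenone (left) and 3 DMSO (right) libraries of day 15; points are libraries, lines means and bars SD, and each vertical axis starts near 0. The first 5 panels hold the lowest p-values, among them mir-234 with rotenone values of 11.8 to 16.3 CPM above DMSO values of 8.88 to 10.3 CPM, and the other panels show nearly level means.

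Families were described by the number of members, the median change and the bounds. Over all 181 hairpins the median was 0.01 on the log2 scale, with 102 above 0 and 79 below. Of the 92 hairpins of at least 100 CPM, 91 excluded a 25% change, so that bound is not particular to any family. In the let-7 family, which times the late larval stages, 0 of 7 members passed, the median change was 0.02 (just below 0 when scaled by library size alone), and all 7 intervals excluded a 25% change. Its founding member let-7 had 2551, 1666 and 1447 reads after rotenone and 2952, 2041 and 1756 with DMSO, with a log2 interval of -0.25 to 0.12. In the lin-4 family, which acts earlier in larval timing, lin-4 and mir-237 had intervals of -0.11 to 0.28 and -0.29 to 0.05. The low value of mir-237 was 1944 CPM in rotenone replicate 3, against 2362 and 2498 CPM in the other rotenone libraries and 2493, 2266 and 2639 CPM with DMSO.

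In the miR-35 family of oocytes and embryos, 0 of 8 members passed, 7 had values above 0 and mir-37 lay below it, the median was 0.07, and all 8 intervals excluded a 25% change. The family held 16.6%, 17.2% and 16.0% of hairpin reads after rotenone and 16.9%, 16.4% and 15.6% with DMSO, ranges that overlap (two-sided exact permutation test, p = 0.6; 20 assignments of 3 against 3 allow no p under 0.1). The largest value of the family was that of mir-36, at 9154, 9447 and 10601 CPM after rotenone, against 8869, 9415 and 8859 CPM with DMSO. Its interval was -0.05 to 0.26, with rotenone replicate 1 inside the DMSO range.

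Of the 8 members of the miR-58 family that were tested, 0 passed (median 0.03, 7 above 0; 5 above 0 with library size alone), and the share of reads was 29.6%, 30.4% and 32.2% after rotenone and 28.5%, 31.4% and 31.2% with DMSO. The 5 members whose intervals excluded a 25% change, mir-58a, mir-80, mir-81, mir-82 and mir-2209a, had over 100 CPM each. The scarce mir-58b, with 17, 10 and 9 reads after rotenone and 26, 23 and 8 with DMSO, left room for a fall of 2.18-fold. In the miR-63 family all 5 members had values below 0, from -0.08 to -0.01, and 0 passed. The shared sign held under 3 other scalings but in neither lane: within lane L006 mir-63 was at 0.06 and mir-66 at 0.11, and within lane L007 mir-229 was at 0.02. The median change of all hairpins within lane L006 was 0.12, however, and all 5 members lay below it there. All 5 intervals excluded a 25% change. Of these, mir-64, mir-65, mir-66 and mir-229 lie together in introns of gcn-1 on its strand (mir-65 at chromosome III, 2173002 to 2173101).

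In the miR-44 family 0 of 4 members passed (median 0.08). Its mir-44 and mir-45 are near copies of each other whose reads could be shared, so that their counts are uncertain. Their reads were nearly equal in each library, as with 220494 and 219889 in rotenone replicate 1 and 224698 and 224106 in DMSO replicate 1. They are thus not separate measurements, and the family's share may count the same reads more than once. The family's share was 8.97%, 9.05% and 9.47% of reads after rotenone and 8.93%, 8.95% and 8.83% with DMSO. The groups did not overlap, at the smallest p that the design allows (two-sided exact permutation test, p = 0.1; 0.956 adjusted over 17 lists; difference of 0.259 percentage points). It was the only one of the 17 lists with that p, the others having p of 0.2 to 1.0. All members of the miR-51 (6), miR-72 (3), miR-50 (3) and miR-238 (3) families excluded a 25% change, with medians of 0.01, 0.01, -0.03 and 0.04, and 0 members passed; with library size alone the first 2 medians were -0.01 and -0.01. In the miR-2 family 3 of 4 excluded it (median -0.02), and 0 passed. The fourth was mir-797, with 83, 58 and 54 reads after rotenone, against 68, 103 and 98 with DMSO, and an interval of -0.67 to 0.10.

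Of 10 hairpins tied to lifespan and stress in the worm, 0 passed, 8 lay above 0 and 2 below, with a median of 0.03 (6 and 4 under each of 3 other scalings). Over all 181 hairpins, 102 lay above 0. All 10 intervals excluded a 25% change, as did those of 91 of the 92 hairpins of at least 100 CPM. Among them mir-238 had an interval of -0.15 to 0.16, mir-239a of -0.09 to 0.17, mir-239b of -0.07 to 0.21 and mir-246 of -0.11 to 0.17. The list held 14.8%, 15.8% and 14.2% of reads after rotenone and 14.9%, 14.8% and 15.0% with DMSO.

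Hairpins enriched in single tissues were bounded in the same way. For mir-1 of muscle the levels were 212, 210.3 and 208 CPM after rotenone, against 197, 224 and 181 CPM with DMSO, with an interval of -0.13 to 0.26. For mir-60 of the intestine they were 989, 1057 and 1015 CPM after rotenone, against 1070, 1080 and 1047 CPM with DMSO, with an interval of -0.21 to 0.08. In both cases the ranges overlapped and a 25% change was excluded. The same bound held for mir-228 of glia (-0.22 to 0.18) and mir-246 of the gonadal sheath.

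The 3 hairpins listed here for neurons were much scarcer, and their bounds were looser. For lsy-6, which sets the left-right difference of a pair of taste neurons, there were 114, 76 and 69 reads after rotenone and 138, 75 and 97 with DMSO (interval -0.41 to 0.27). For mir-124 of sensory neurons the interval was -0.47 to 0.17 and for mir-791 -0.54 to 0.25. All 3 excluded a 1.5-fold change, none a 25% change, and all 3 lay below 0. These 3 are not a full set of neuronal hairpins, so their shared sign is not a result about neurons. The shared sign held in neither lane: mir-124 was at 0.10 within lane L006 and lsy-6 at 0.02 within lane L007. The median change of all hairpins within lane L006 was 0.12, however, and all 3 lay below it there. A fall of these hairpins by 1.33-fold to 1.45-fold is thus not excluded.

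The day 15 bounds were set beside the changes at day 5, measured in 6 other libraries of the same fit. At day 5, 46 hairpins were called (25.4%), 11 higher and 35 lower. Among hairpins of at least 10 CPM at day 5, the 5 largest falls were those of mir-71, mir-4937, mir-241, mir-1020 and mir-77, and the 5 largest rises those of mir-1018, mir-231, mir-41, mir-1829b and mir-42. The day 15 interval of mir-71, a hairpin that promotes long life, was -0.14 to 0.11, so that any fall of more than 1.10-fold was excluded, whereas the day 5 interval was -0.82 to -0.57. For mir-77 the day 15 interval was -0.17 to 0.08 and the day 5 interval -0.62 to -0.37. For mir-241 of the let-7 family they were -0.11 to 0.28 and -0.74 to -0.39.

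In those 3 hairpins the intervals of both ages lay apart, and the tests of the difference itself are given under the results for a closer look. The scarce hairpins allow less: for mir-1020, at 15, 13 and 13 reads after rotenone and 24, 12 and 12 with DMSO, the day 15 interval of -0.70 to 0.64 still held the day 5 estimate of -0.54. Of the 46 day 5 calls, 44 had a day 5 estimate outside the hairpin's day 15 interval, and mir-1020 and mir-64 did not. The day 5 estimates carry their own error and were picked because they were called. That choice favours estimates outside day 15 intervals that include 0, so the count of 44 is no test of a difference between the ages. By the test of the difference itself, the day 15 effect differed from the day 5 effect in 12 of 181 hairpins (6.63%), all 12 among the 46. That count was 29 with a lane term, 38 within lane L006, 0 within lane L007, where day 5 has 1 library per treatment, and 8 to 19 with 1 library left out (19 without day 5 DMSO replicate 3).

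**Figure D5:**
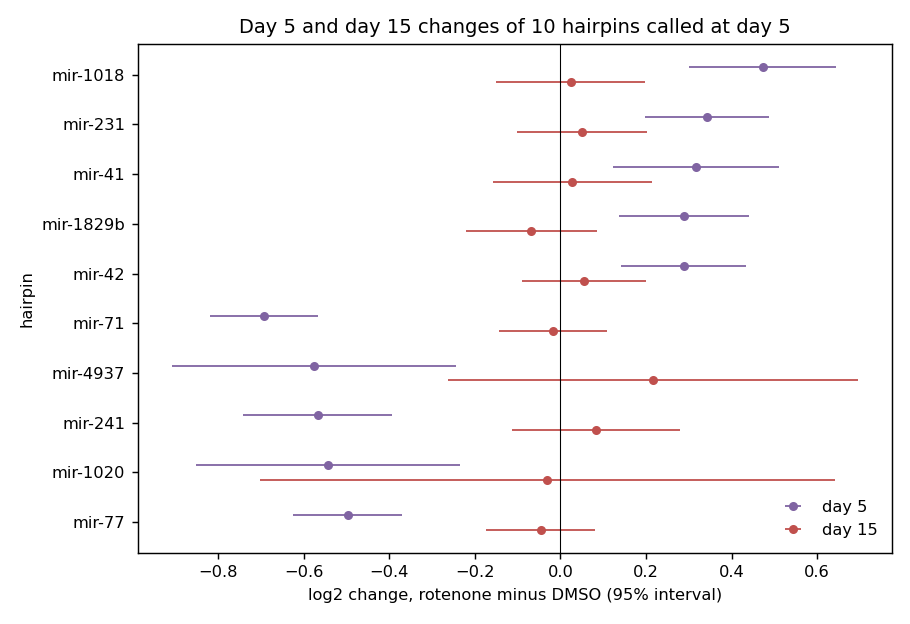
Log2 change (rotenone minus DMSO) at day 5 (purple) and day 15 (red) with 95% intervals for the 5 largest rises and 5 largest falls called at day 5 among hairpins of at least 10 CPM at that age. The day 15 intervals include 0 in all 10 hairpins, and those of mir-4937 and mir-1020, with under 10 CPM at day 15, are the widest.

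Lane was balanced over treatment at day 15, with replicate 1 of both groups in L006 and replicates 2 and 3 of both in L007. With lane as a term in the fit, 0 hairpins were called for rotenone and 21 of 181 (11.6%) for lane. The median interval narrowed to ± 0.17, against ± 0.20 without the term, and 130 hairpins excluded a 1.5-fold change. Within lane L006, with 1 library per treatment, the spread taken from the day 5 libraries of that lane and the lone libraries assumed to vary like them, the median change of all hairpins was 0.12 and 3 hairpins were called. These were mir-49 (0.49; adjusted p = 0.0042, edgeR quasi-likelihood test), mir-2209a (0.31) and mir-54 (0.26). Within lane L007 their changes were 0.19, -0.11 and -0.02, and 90 of 178 hairpins had the same sign in both lanes. The changes within lane L006, calls included, were centred on 0.12, and those within lane L007 on -0.0002. The count of equal signs is thus no clean measure of how far the lanes matched.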

How the data were processed

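Total RNA of whole worms was made into TruSeq small RNA libraries, per the labels' protocols. The authors deposited raw read counts per hairpin for 12 libraries. Tools listed, without their roles, in the submitters' processing notes are BWA 0.7.12-r1039, SAMtools 1.3.1-9, bcl2fastq 1.8.4 and Trimmomatic 0.36. Not given in the sources used here are the hairpin reference, the genome build and the rule for reads that match several hairpins. The labels give lane tags and no replicate numbers; replicates were numbered in accession order within a group.

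Counts of 181 of 250 hairpins that passed filterByExpr (minimum count 10) were fitted with edgeR 4.0.16 in R 4.3.3: TMM scaling, 4 group means over all 12 libraries, the quasi-likelihood test, and Benjamini-Hochberg adjustment over 181 hairpins. Intervals at 95% used the standard error from the Fisher information and the moderated dispersion, never under the counting error. Abundance classes used the mean CPM of the 6 day 15 libraries. DESeq2 1.42.0, limma-voom (limma 3.58.1), other scalings, filters, lanes and libraries left out were alternatives. The procedure was run on simulated counts with the same spread for all hairpins and groups. That cannot check the intervals where the spread differs between hairpins or between treatments. Coordinates came from matching 245 of 250 names to the WBcel235 annotation. Hairpins were named by rule: the 5 most abundant, the 5 lowest p, the narrowest and widest interval of each class, the 5 largest rises and falls called at day 5 among hairpins of at least 10 CPM there, and members of lists. Outside these rules mir-76, mir-251, mir-784, mir-4807, mir-358, mir-4809 and mir-4810b were named after their values were seen. Some members of lists, such as mir-54 and mir-2209a, were also singled out for their values. The comparison and the lists were chosen with earlier results of these data known.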

Additional observations from a re-analysis of the deposited data

Results flagged for a closer look

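For 5 of the 10 hairpins named for their change at day 5, the effect of rotenone differed between the ages. The test was of the difference itself (edgeR quasi-likelihood test of day 15 effect minus day 5 effect, adjusted over 181 hairpins). Among all hairpins tested it called 12 of 181 (6.63%). For mir-71 the day 15 effect minus the day 5 effect was 0.68 ± 0.09 on the log2 scale (SE; adjusted p = 5.02e-06). The levels of mir-71 were 3223, 3387 and 3338 CPM after rotenone and 3340, 3288 and 3438 CPM with DMSO at day 15, ranges that overlap, and 6751, 6604 and 6820 CPM after rotenone and 10268, 11300 and 11055 CPM with DMSO at day 5, ranges that do not. For mir-241 the difference was 0.65 ± 0.13 (adjusted p = 0.00159), and for mir-77 it was 0.45 ± 0.09 (adjusted p = 0.00159).

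The 2 hairpins that were higher at day 5 had differences of the opposite sign. For mir-1018 the difference was -0.45 ± 0.12 (adjusted p = 0.0183), and for mir-1829b it was -0.36 ± 0.10 (adjusted p = 0.0328). Both calls depended on single libraries: the adjusted p of mir-1018 was 0.0577 without day 5 rotenone replicate 2, and that of mir-1829b was 0.0747 and 0.103 without day 5 rotenone replicates 1 and 2. All 5 differences were called with a lane term and within lane L006. Within lane L007, where day 5 has 1 library per treatment, none was called, at differences of 0.64 for mir-71, 0.61 for mir-241, 0.42 for mir-77, -0.40 for mir-1018 and -0.28 for mir-1829b. The other 5 named hairpins, mir-231, mir-41, mir-42, mir-4937 and mir-1020, had adjusted p of 0.0741 to 0.398. With a lane term mir-231 (-0.29, adjusted p = 0.0271) and mir-4937 (0.78, adjusted p = 0.0443) were called at about the same difference, and both were called within lane L006 (adjusted p = 0.0407 and 0.00996), where day 15 has 1 library per treatment. Within lane L007 neither was called (-0.25 and 0.37). Under the stricter filter, and likewise once the 3 most abundant hairpins were removed, mir-231, mir-41 and mir-42 were called. All 10 were picked for the size of their day 5 change, among hairpins of at least 10 CPM at day 5. That change is itself a term of the tested difference, so calls among these 10 were favoured by the choice.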

How the results depend on the processing

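There were 0 calls at day 15 under every setting that used both lanes, with any 1 library left out included; within lane L006 there were 3. The number of hairpins that excluded a 1.5-fold change was 129, 120 to 129 with 1 library left out, and 98 with intervals that hold jointly. That for a 25% change was 97, 82 to 99 with 1 library left out, and 23 with intervals that hold jointly. In the class of 1 to 10 CPM the 1.5-fold count of 7 was the least stable. It was 2 under the stricter filter, 4 with DESeq2, 0 within lane L006, 0 within lane L007, 0 with joint intervals, and 0 to 8 with 1 library left out. In the class of 10 to 100 CPM the count of 30 was 13 within lane L006, 18 within lane L007 and 6 with joint intervals. The number of hairpins whose effect differed between the ages was 12; it was 29 with a lane term, 38 within lane L006, 0 within lane L007, and 8 to 19 with 1 library left out (19 without day 5 DMSO replicate 3). The share of the miR-72 family differed by -0.425 percentage points, and by 0.0353 with the 3 most abundant hairpins left out, of which mir-72 is 1. No call reversed. The causes were not tested, except that fewer hairpins or libraries enter some settings by construction. No paired analysis was possible because the labels carry no replicate numbers. Depth is part of what limits the bounds below 100 CPM, where 89 tested hairpins held 0.130% of the reads. At 10 to 100 CPM counting gave 18.4% to 82.5% of the variance of the change, and the spread between libraries the rest.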
